A study of Homo sapiens with 112 samples.

Results

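TGF-β is a growth factor that restrains the division of normal prostate epithelium, and PMEPA1 is a membrane protein of that pathway whose gene was first described in prostate cells as one that androgen induces. The levels of PMEPA1 and of 9 core TGF-β signalling genes were followed in RNA-seq libraries of VCaP and LAPC4 cells, both established lines from human prostate cancer with an androgen response. The 10 genes are the ligands TGFB1 and TGFB2, the receptors TGFBR1 and TGFBR2, the signal carrier SMAD3, the inhibitory SMAD6 and SMAD7, the nuclear corepressors SKI and SKIL, and PMEPA1. They are 10 of the 58684 genes in the count table and were chosen by gene symbol, with their R1881 and darolutamide responses in these same libraries already known. Their fold changes with R1881 and darolutamide, and the differences between doses, time points and lines built from them, are therefore given as a description with no p-value. A value is named called where its adjusted p in edgeR's fit over all genes was under 0.05. P-values are given for the levels in DMSO and for genes outside the list. The known R1881 responses were measured against these DMSO libraries, so the p-values of members in DMSO are likewise a description. The further pathway genes were listed with earlier results of these data known, and most were named for a large R1881 change at 22 h. Their p-values, adjusted over all tested genes, are therefore a description too.

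The study asked how the androgen receptor antagonist darolutamide, a drug against prostate cancer, changes transcription that androgen drives. In each line, cells starved of hormone for 2 days, in 10% serum stripped with charcoal, received DMSO (vehicle), 1 nM R1881 (a synthetic androgen), 1 nM R1881 plus 500 nM darolutamide, or the same R1881 with 2 µM darolutamide, for 8 or 22 h. The 8 VCaP groups held 4 to 10 libraries (55 in all) and the 8 LAPC4 groups 5 to 10 (57 in all). The study states 5 biological replicates per condition, so these numbers differ from it, with more libraries in every DMSO and R1881 group. Whether all libraries of a group are independent cultures is not given in the sources used here, so p-values measure the spread between these libraries. Replicate numbers above 5 occur among the DMSO and R1881 libraries and not in the darolutamide groups, and whether those libraries come from the same experiment is not given in the sources used here. VCaP carries the TMPRSS2-ERG fusion and LAPC4 does not, and with 1 line of each kind a difference between them cannot be told apart from any other difference between the lines or their preparation.

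In the TGF-β pathway, the ligand binds TGFBR2, which activates TGFBR1, and TGFBR1 phosphorylates SMAD2 and SMAD3 so that they enter the nucleus with SMAD4 and change transcription. SMAD7 and SMAD6 block the pathway at the receptor level, SKI and SKIL repress transcription at SMAD-bound genes, and several of these inhibitors are themselves switched on by the signal. PMEPA1 binds SMAD2 and SMAD3 in the cytoplasm and recruits ubiquitin ligases through PPxY motifs, so it is counted among the inhibitors. The libraries measure messenger RNA, not the activity of the pathway.

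Libraries held 12188455 to 25201678 counted reads. The androgen response was present in both lines, since KLK3, which encodes prostate-specific antigen, averaged 17.6 CPM (reads of a gene per 1000000 counted reads, after TMM scaling) in DMSO and 191 CPM with R1881 for 22 h in VCaP, and 14.3 and 44.9 CPM in LAPC4. FKBP5, another androgen-induced gene, rose from 72.3 to 3257 CPM in VCaP and from 124 to 320.0 CPM in LAPC4. ERG had 1578 to 21554 reads in every VCaP library and 0 to 1 in the LAPC4 libraries. The epithelial markers KRT8, KRT18, EPCAM and CDH1 were at 145 CPM or above in every library. Of 6 fibroblast markers, COL1A2 was at 0 in every VCaP library and COL3A1, DCN, PDGFRA and PDGFRB at 0 to 45 reads in either line. LUM was the exception, at 2 to 657 reads in VCaP, and with it the summed level of the 6 markers in VCaP at 22 h fell from 26.6 to 30.7 CPM in DMSO to 0.450 to 1.20 CPM with R1881, while 4.78 to 6.01 CPM were present with 2 µM darolutamide. In LAPC4 at 22 h the sum was 4.34 to 5.51 CPM in DMSO and 2.10 to 3.23 CPM with R1881. The part of this shift in the other results was not tested, and in bulk libraries fewer cells of a kind and less RNA per cell cannot be told apart. The 4 endothelial and leukocyte markers (PECAM1, CDH5, PTPRC and CD14) had at most 15 reads in any library.

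PMEPA1 (ENSG00000124225) lies on the minus strand of chromosome 20, at 57648392 to 57711536 of GRCh38, and RefSeq places 4 transcript starts within it. Since the values to follow turn on PMEPA1, the 250 bases upstream of the starts with a motif match are shown, 5′ to 3′ on the gene's strand, from RefSeq on GRCh38.p14, with matches in capitals. The letters searched on both strands were AGAACA, the core hexamer of the androgen receptor element, and CAGAC, the SMAD box. The hexamer was found in 12.4% and the SMAD box in 38.0% of the 35116 upstream windows of the same length in RefSeq, so a match is common by its letters alone and is a description of the sequence, not of binding.
chr20:57710578-57710827: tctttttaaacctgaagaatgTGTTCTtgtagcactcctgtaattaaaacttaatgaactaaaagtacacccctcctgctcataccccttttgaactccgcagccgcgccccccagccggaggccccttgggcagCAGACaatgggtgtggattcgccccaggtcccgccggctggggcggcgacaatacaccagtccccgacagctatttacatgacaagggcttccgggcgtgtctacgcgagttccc
chr20:57690687-57690936: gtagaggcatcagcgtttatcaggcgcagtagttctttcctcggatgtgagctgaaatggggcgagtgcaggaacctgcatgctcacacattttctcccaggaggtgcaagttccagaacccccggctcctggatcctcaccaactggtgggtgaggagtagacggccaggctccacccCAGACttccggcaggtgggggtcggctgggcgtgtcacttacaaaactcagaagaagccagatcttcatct
The first window holds the hexamer, read on this strand as TGTTCT, 229 bases before the start at 57710577 and the SMAD box 115 bases before it. The second, which ends at the start at 57690686, holds the SMAD box 71 bases before the start. Both windows lie within the span of the gene given above. The windows of the other 2 starts held neither motif. Counts per gene do not show which start was used. Among the other members with a RefSeq window, the hexamer was found in 1 of 2 windows of TGFBR2, 2 of 8 of TGFBR1 and the single window of SMAD6, and SKI had no window in the table.

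In hormone-starved cells PMEPA1 was the most abundant of the 10 transcripts in VCaP and near the middle of all genes in LAPC4. To compare genes, CPM scaled over both lines together were divided by the length of the merged exons in kb. After 22 h in DMSO, PMEPA1 was at 120.4 ± 2.67 CPM per kb in VCaP (SD, n = 8), the 97.6th percentile of the 16253 tested genes with a length, and at 6.32 ± 0.237 CPM per kb in LAPC4 (SD, n = 7), the 57.5th percentile of 15290 genes. The 2 ranges were far apart, 116 to 124 CPM per kb in VCaP against 5.89 to 6.69 in LAPC4.

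In VCaP, SKI followed at 9.002 ± 0.663 CPM per kb, TGFBR1 at 6.84 ± 0.811, SMAD7 at 5.56 ± 0.258, SMAD3 at 4.11 ± 0.131, SKIL at 3.59 ± 0.457, SMAD6 at 0.978 ± 0.145, TGFBR2 at 0.429 ± 0.0668, TGFB2 at 0.410 ± 0.0690 and TGFB1 at 0.0374 ± 0.0282 (SD, n = 8 each). The ranges of SMAD3 and SKIL overlapped, as did those of TGFBR2 and TGFB2, and the other neighbours in this order did not. In LAPC4 the order was SKI at 11.6 ± 0.454 CPM per kb, TGFBR1 at 6.59 ± 0.386, PMEPA1, SKIL at 2.55 ± 0.342, TGFBR2 at 2.05 ± 0.196, SMAD3 at 1.94 ± 0.124, SMAD7 at 1.70 ± 0.151, TGFB2 at 1.53 ± 0.235, SMAD6 at 0.173 ± 0.0321 and TGFB1 at 0.113 ± 0.0357 (SD, n = 7 each). There the neighbours from SKIL down to TGFB2 overlapped each other in turn, as did TGFBR1 with PMEPA1 and SMAD6 with TGFB1. TGFB1, the ligand most often studied, was almost absent, with 0 to 7 reads per library in VCaP, which did not pass the count filter, and 1 to 15 reads in LAPC4.

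**Figure D1:**
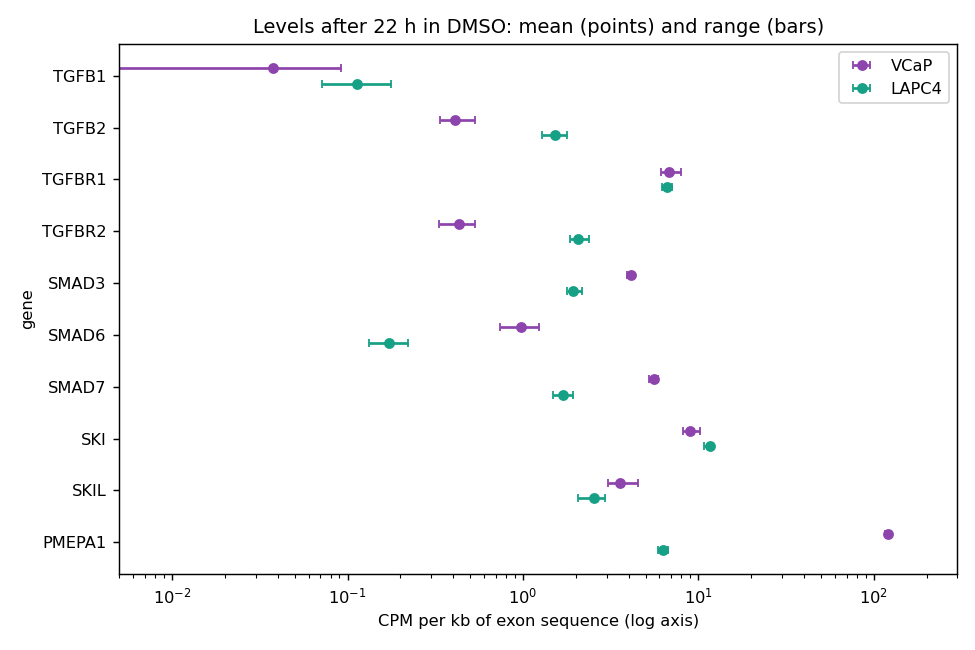
Level of each gene after 22 h in DMSO, in CPM per kb of merged exon sequence on a log axis, with points at the mean and bars from the lowest to the highest library (VCaP, n = 8, and LAPC4, n = 7). The lower bar of TGFB1 in VCaP reaches 0 and ends at the edge of the plot, and PMEPA1 is at 120.4 in VCaP and 6.32 in LAPC4.

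Starting levels after 22 h in DMSO differed between the lines in 8 of the 9 members tested in both (quasi-likelihood test of edgeR, Benjamini-Hochberg adjustment over 16578 genes, adjusted p under 0.05), beside 85.5% of all genes tested. The count is near that share and is not read as a trait of these genes. At 22 h in DMSO, PMEPA1 was higher in VCaP by 4.25 ± 0.028 (SE, edgeR adjusted p = 2.77e-117) on the log2 scale, which is 19.1-fold. Its fellow inhibitors were higher in VCaP too, SMAD6 by 2.49 ± 0.12 (SE, edgeR adjusted p = 8.90e-37) and SMAD7 by 1.71 ± 0.063 (SE, edgeR adjusted p = 8.30e-48). SMAD3 was higher by 1.08 ± 0.052 (SE, edgeR adjusted p = 5.68e-38) and SKIL by 0.50 ± 0.077 (SE, edgeR adjusted p = 7.73e-09). In the other direction, the log2 difference of VCaP against LAPC4 was -2.25 ± 0.11 (SE, edgeR adjusted p = 6.05e-38) for TGFBR2, -1.89 ± 0.11 (SE, edgeR adjusted p = 1.50e-30) for TGFB2 and -0.37 ± 0.056 (SE, edgeR adjusted p = 3.46e-09) for SKI. Among the listed members, TGFB2 and TGFBR2 were thus lower in VCaP than in LAPC4, whereas SMAD3 and the inhibitors except SKI were higher. Inhibitors outside the list went both ways, since of 11 tested 6 were called higher in VCaP and 4 lower, with a median log2 difference of 0.13. TGFBR1 was not called, at 0.056 ± 0.061 (SE, edgeR adjusted p = 0.386). At 8 h all 9 were called, beside 87.9% of all genes, with PMEPA1 at 4.24 ± 0.024 (SE, edgeR adjusted p = 1.23e-124). Copy number in the lines was not measured.

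Under DMSO alone, levels also moved between 8 and 22 h, in 4 of 9 tested members in VCaP (beside 29.8% of 19266 genes) and 4 of 10 in LAPC4 (beside 22.1% of 18204 genes). PMEPA1 was lower at 22 h in both lines, with log2 differences of -0.099 ± 0.021 (SE, edgeR adjusted p = 2.06e-04) in VCaP and -0.14 ± 0.031 (SE, edgeR adjusted p = 3.02e-04) in LAPC4, with overlapping groups. SMAD3 was higher in both, by 0.17 ± 0.044 (SE, edgeR adjusted p = 0.00173) and 0.20 ± 0.048 (SE, edgeR adjusted p = 0.00149). TGFB2 was higher at 22 h in LAPC4, by 0.54 ± 0.099 (SE, edgeR adjusted p = 2.21e-05). In VCaP, SMAD6 was lower, at -0.39 ± 0.082 (SE, edgeR adjusted p = 1.33e-04), as was TGFBR2, at -0.45 ± 0.14 (SE, edgeR adjusted p = 0.0107), and SKI was lower in LAPC4, at -0.19 ± 0.059 (SE, edgeR adjusted p = 0.0167). The calls of SMAD3 and PMEPA1 in LAPC4, and of SMAD3 in VCaP, were lost with the control replicates 6 and above alone, at 0.15, -0.16 and 0.19. Those of TGFBR2 in VCaP and SKI in LAPC4 were lost with replicates 1 to 5, at -0.40 and -0.15, and with 6 and above, at -0.52 and -0.21. That of SMAD6 in VCaP was lost with replicates 1 to 5, at -0.31. These subsets hold fewer libraries, and each difference kept its sign. The comparisons with R1881 below use the DMSO libraries of the same time point.

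R1881 raised PMEPA1 in both lines, more at 22 h than at 8 h, and darolutamide returned PMEPA1 to or near the DMSO level in LAPC4 and not in VCaP. In VCaP at 22 h, the DMSO libraries held 572 to 616 CPM (median 598, n = 8) and the R1881 libraries 1453 to 1518 CPM (median 1479, n = 9). With 500 nM darolutamide the 4 libraries held 1363, 1379, 1413 and 1419 CPM, and with 2 µM the 5 libraries held 1240.2, 1240.3, 1242, 1245 and 1256 CPM. The 4 groups did not overlap, and both darolutamide groups lay far nearer to R1881 than to DMSO.

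At 8 h in VCaP, DMSO libraries held 609 to 671 CPM (median 646, n = 10) and R1881 libraries 980.5 to 1087 CPM (median 1024, n = 10). With 500 nM darolutamide the values were 1309, 1310.3, 1326 and 1350.4 CPM. Those with 2 µM held 1303, 1337, 1352, 1355 and 1360.0 CPM. Every darolutamide library was thus above every R1881 library at this time, and the 2 doses overlapped each other. The log2 fold change of R1881 against DMSO was 0.68 ± 0.020 (SE) at 8 h and 1.31 ± 0.022 (SE) at 22 h, a 2.47-fold rise. Against R1881 alone, PMEPA1 was higher by 0.36 ± 0.026 (SE) with 500 nM and by 0.38 ± 0.024 (SE) with 2 µM darolutamide at 8 h. At 22 h it was at -0.088 ± 0.027 (SE) with 500 nM and -0.25 ± 0.025 (SE) with 2 µM. The small value at 500 nM was no longer called when only the compared groups were fitted, at -0.063.

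**Figure D2:**
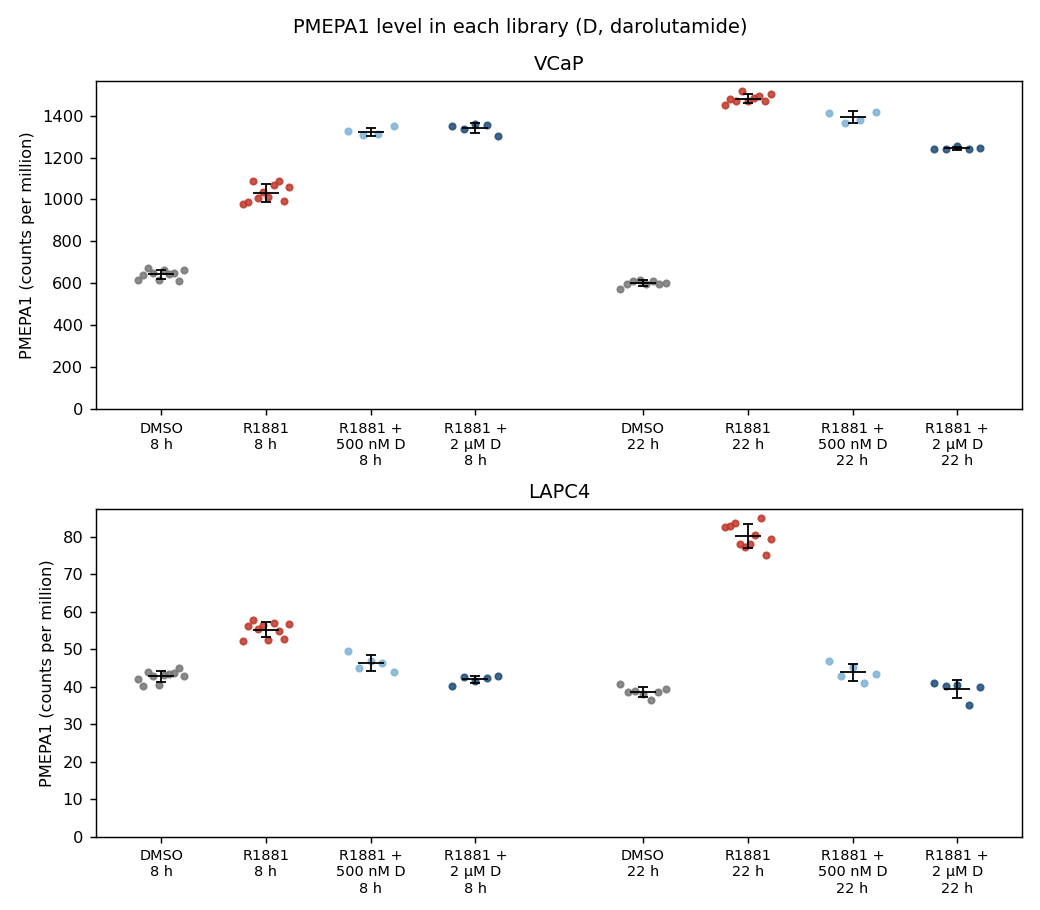
PMEPA1 in CPM in every library of VCaP (top) and LAPC4 (bottom), with 1 point per library, a black line at the group mean and bars of 1 SD. In VCaP at 8 h both darolutamide groups lie above the R1881 group, while in LAPC4 the 2 µM groups lie at the level of DMSO.

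In LAPC4, which held far less PMEPA1, the 22 h libraries held 36.5 to 40.8 CPM (median 38.8, n = 7) in DMSO and 75.1 to 85.1 CPM (median 80.00, n = 10) with R1881. In the 500 nM group the libraries held 40.99, 42.9, 43.4, 45.2 and 46.8 CPM. With 2 µM they held 35.3, 39.97, 40.1, 40.6 and 40.9 CPM. All of these were below every R1881 library, and the 2 µM libraries overlapped those in DMSO. At 8 h the values were 40.2 to 44.9 CPM (median 43.03, n = 10) in DMSO, 52.2 to 57.8 CPM (median 55.9, n = 10) with R1881, 43.8, 45.1, 46.3, 46.9 and 49.7 CPM with 500 nM and 40.3, 41.6, 42.3, 42.7 and 42.9 CPM with 2 µM. By group mean, R1881 was highest at both times and 500 nM next. DMSO and 2 µM lay close together below, and the range was narrower at 8 h. R1881 raised PMEPA1 by 0.37 ± 0.028 (SE) at 8 h and 1.05 ± 0.031 (SE) at 22 h on the log2 scale. Against R1881, it fell by 0.87 ± 0.035 (SE) with 500 nM and by 1.03 ± 0.035 (SE) with 2 µM at 22 h, and the log2 differences at 8 h were -0.25 ± 0.034 (SE) and -0.40 ± 0.034 (SE).

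Placed on a scale of log2 CPM from the R1881 mean (0%) to the DMSO mean (100%) of the same time, the LAPC4 libraries lay at 83.2 ± 6.93% with 500 nM and 97.9 ± 8.41% with 2 µM at 22 h, and at 68.5 ± 18.5% and 107 ± 9.85% at 8 h (SD, n = 5 each). The VCaP libraries lay at 6.77 ± 2.16% with 500 nM (SD, n = 4) and 19.2 ± 0.591% with 2 µM (SD, n = 5) at 22 h. At 8 h they lay on the far side of R1881, at -52.7 ± 3.07% (SD, n = 4) and -55.4 ± 3.68% (SD, n = 5). The doses share the same R1881 and DMSO libraries, so their positions are not independent of each other.

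The responses were next compared between times, lines and doses, with the same libraries and as a description. The R1881 effect on PMEPA1 was larger at 22 h than at 8 h, by 0.62 ± 0.030 (SE) in VCaP and 0.68 ± 0.041 (SE) in LAPC4. It was larger in VCaP than in LAPC4, by 0.23 ± 0.030 (SE) at 8 h and 0.20 ± 0.033 (SE) at 22 h. The 2 µM dose left less PMEPA1 than 500 nM at 22 h in VCaP, with a log2 difference of -0.16 ± 0.030 (SE) and no overlap, and at 8 h the difference was 0.019 ± 0.030 (SE, not called). In LAPC4 the log2 difference between the doses was -0.16 ± 0.039 (SE, not called) at 22 h and -0.14 ± 0.039 (SE, not called) at 8 h, and at 22 h it was called without replicate 4 of the 500 nM group, at -0.18, and without replicate 1 of the 2 µM group, at -0.18. Against DMSO, PMEPA1 with R1881 plus 2 µM darolutamide remained higher in VCaP, by 1.06 ± 0.024 (SE) at 8 h and 1.05 ± 0.025 (SE) at 22 h. In LAPC4 the same difference was -0.027 ± 0.034 (SE, not called) and 0.023 ± 0.037 (SE, not called).

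NKILA, a noncoding RNA gene on the opposite strand, overlaps 343 bases of PMEPA1 exons (5.98% of their length), and its reads cannot be told apart from those of PMEPA1 there because the strand setting of the counting was not given in the sources used here. NKILA had 198 to 2031 reads per VCaP library, between 2.42% and 7.05% of the PMEPA1 reads of the same library, and 11 to 40 reads in LAPC4. In VCaP it averaged 26.00 CPM in DMSO, 27.3 with R1881, 45.04 with 500 nM and 52.95 with 2 µM darolutamide at 8 h. At 22 h the means were 17.8, 82.00, 89.7 and 55.5 CPM. It was named after its values were seen, because of this overlap.

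Across the list, R1881 was called for nearly every tested member in VCaP at both times, and in LAPC4 for PMEPA1 alone at 8 h and 5 members at 22 h. In VCaP, 8 of 9 were called at 8 h (5 higher, 3 lower), beside 66.9% of 19266 genes (32.8% higher, 34.1% lower), and 9 of 9 at 22 h (5 higher, 4 lower), beside 77.4% (37.4% and 40.0%). In LAPC4, 1 of 10 was called at 8 h, beside 2.64% of 18204 genes, and 5 of 10 at 22 h (2 higher, 3 lower), beside 13.3% (6.83% and 6.45%). The median log2 fold change over the tested members at 22 h was 0.32 in VCaP and -0.13 in LAPC4, and over all tested genes -0.034 and 0.0067. These genes were listed with their R1881 values known, so the counts are not read against those shares. At 22 h in LAPC4, 3 of 10 were called with the control replicates 1 to 5 alone and 3 of 10 with those numbered 6 and above.

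**Figure D3:**
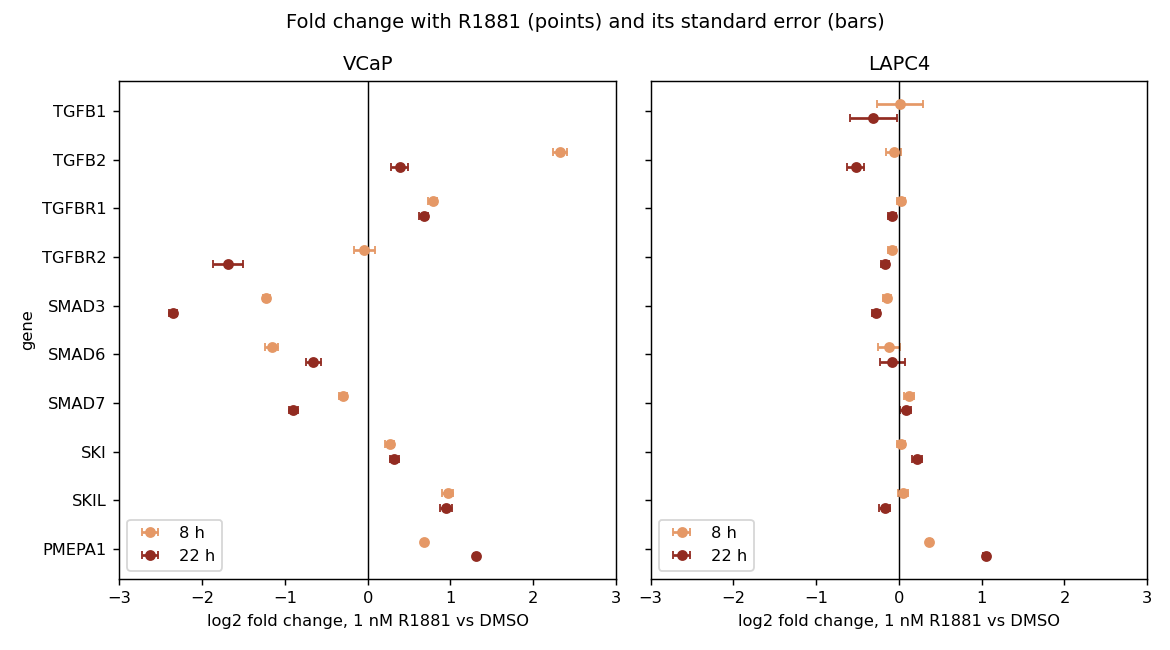
Log2 fold change of 1 nM R1881 against DMSO for each member at 8 and 22 h in VCaP (left) and LAPC4 (right), with bars of 1 SE, and TGFB1 shown only in LAPC4 because it did not pass the count filter in VCaP. The VCaP values spread from -2.35 for SMAD3 at 22 h to 2.33 for TGFB2 at 8 h, while PMEPA1 is the only member above 0.3 in LAPC4.

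Of the ligands, TGFB2 (chr1:218345336-218444619, plus strand, GRCh38) was the one measured well enough to follow, and in VCaP it rose early. At 8 h in VCaP, DMSO libraries held 1.69 to 3.42 CPM (median 2.35, n = 10) and R1881 libraries 11.1 to 12.97 CPM (median 12.4, n = 10). At 500 nM the libraries held 11.3, 11.4, 12.7 and 13.2 CPM. The 2 µM libraries held 8.10, 8.22, 8.66, 9.35 and 9.53 CPM. The 500 nM group was level with R1881, and the 2 µM group lay below both and well above DMSO. At 22 h the ranges were 1.76 to 2.83 CPM (median 2.10, n = 8) in DMSO and 2.09 to 3.49 CPM (median 2.84, n = 9) with R1881, which overlapped. The 500 nM libraries then held 4.85, 5.56, 6.04 and 6.09 CPM. At 2 µM the values were 4.31, 5.17, 5.44, 5.76 and 5.97 CPM. All 9 darolutamide libraries were above every R1881 and every DMSO library at 22 h.

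The log2 fold change of TGFB2 with R1881 was 2.33 ± 0.082 (SE) at 8 h, a 5.01-fold rise, and 0.39 ± 0.10 (SE) at 22 h, and the effect of R1881 differed between the times by -1.94 ± 0.13 (SE). The 22 h value was not called with the control replicates 6 and above alone, at 0.18. Against R1881, 2 µM darolutamide gave -0.48 ± 0.089 (SE) at 8 h and 0.91 ± 0.10 (SE) at 22 h, and 500 nM gave -0.0042 ± 0.094 (SE, not called) and 0.99 ± 0.11 (SE). The sign of the darolutamide difference thus turned between the time points. The doses differed at 8 h, by -0.47 ± 0.11 (SE), and at 22 h the difference was -0.081 ± 0.12 (SE, not called). With R1881 plus 2 µM darolutamide, TGFB2 was above DMSO by 1.85 ± 0.096 (SE) at 8 h and 1.30 ± 0.11 (SE) at 22 h.

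In LAPC4, TGFB2 moved the other way at 22 h. DMSO libraries held 8.38 to 11.6 CPM (median 9.36, n = 7) and R1881 libraries 4.78 to 8.74 CPM (median 6.78, n = 10). The values with 500 nM were 7.90, 8.53, 8.72, 9.23 and 9.29 CPM. Those with 2 µM held 7.35, 8.08, 8.83, 9.73 and 9.84 CPM, and all 4 groups overlapped a neighbour. R1881 against DMSO was -0.52 ± 0.099 (SE) at 22 h and -0.064 ± 0.094 (SE, not called) at 8 h, and 2 µM darolutamide against R1881 was 0.35 ± 0.11 (SE) at 22 h. The difference between the time points, -0.46 ± 0.14 (SE), was not called when only the compared groups were fitted, at -0.47. The 2 µM call against R1881 was lost without replicate 2, 3 or 4 of that group, with values of 0.35, 0.31 and 0.31. With the control replicates 1 to 5 alone it was lost too, at 0.17, as it was without the filter on low counts, at 0.36, and with the compared groups alone, at 0.35. The R1881 effect on TGFB2 was higher in VCaP than in LAPC4 by 2.31 ± 0.13 (SE) at 8 h and 0.85 ± 0.15 (SE) at 22 h. TGFB1 (chr19:41301587-41353922, minus strand) was between 0.0539 and 0.626 CPM in the LAPC4 libraries and was called in no comparison within that line. HNRNPUL1, a widely expressed gene on the opposite strand, overlaps 215 bases of TGFB1 exons and had 3924 to 10315 reads per library, so reads listed under TGFB1 may not all be its own. TGFB2-OT1, on the same strand as TGFB2, overlaps 1371 bases of its exons (22.7% of their length) and had 0 reads in every library. TGFB2-AS1, on the opposite strand, overlaps 701 bases (11.6%) and had 0 to 6 reads. How reads in shared bases were assigned is not given, so the TGFB2 level, also per kb, may not hold all its reads.

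The receptors moved in opposite directions in VCaP. TGFBR1 (chr9:99104038-99154192, plus strand), the type I receptor that phosphorylates SMAD3, held 41.9 to 55.5 CPM (median 45.1, n = 8) in DMSO and 70.05 to 86.1 CPM (median 74.9, n = 9) with R1881 at 22 h, without overlap. The 500 nM libraries held 52.4, 54.03, 54.4 and 57.4 CPM. With 2 µM they held 44.7, 47.3, 47.6, 49.2 and 49.9 CPM, both inside or beside the DMSO range. At 8 h it held 43.8 to 56.5 CPM (median 50.1, n = 10) in DMSO and 71.4 to 99.4 CPM (median 87.8, n = 10) with R1881, with 68.5, 73.8, 75.3 and 78.7 CPM at 500 nM and 57.9, 59.7, 60.3, 63.2 and 63.7 CPM at 2 µM, so the groups stepped down with dose. TGFBR1 rose with R1881 by 0.79 ± 0.051 (SE) at 8 h and 0.68 ± 0.056 (SE) at 22 h, and 2 µM darolutamide against R1881 gave -0.50 ± 0.063 (SE) and -0.67 ± 0.065 (SE). The doses differed at 8 h, by -0.28 ± 0.076 (SE), while at 22 h the value was -0.19 ± 0.077 (SE, not called). At 8 h the 500 nM value against R1881, -0.22 ± 0.068 (SE), lost its call without replicate 3 of that group, at -0.18.

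TGFBR2 (chr3:30606601-30694142, plus strand), the receptor that binds the ligand, was scarce in VCaP, with 7 to 95 reads per library. At 22 h it held 1.99 to 3.17 CPM (median 2.52, n = 8) in DMSO and 0.327 to 1.10 CPM (median 0.863, n = 9) with R1881. With 500 nM darolutamide the values were 0.383, 0.812, 1.21 and 1.73 CPM. The 2 µM libraries held 1.22, 1.26, 1.27, 1.27 and 1.62 CPM. R1881 and DMSO did not overlap, the 2 µM group lay between them, and the 500 nM libraries were spread from inside the R1881 range into the gap. At 8 h the ranges were 2.37 to 4.30 CPM (median 3.48, n = 10) and 2.56 to 4.60 CPM (median 3.25, n = 10), which overlapped. The R1881 fold change was -0.043 ± 0.13 (SE, not called) at 8 h and -1.68 ± 0.18 (SE) at 22 h, a difference between the times of -1.64 ± 0.22 (SE). With R1881 plus 2 µM darolutamide, TGFBR2 stayed below DMSO at 22 h, at -0.94 ± 0.19 (SE). In LAPC4 the gene held 13.7 to 17.4 CPM (median 14.4, n = 7) in DMSO and 12.2 to 14.7 CPM (median 13.3, n = 10) with R1881 at 22 h, a log2 fold change of -0.17 ± 0.052 (SE) that was not called with control replicates 1 to 5 or with those numbered 6 and above. The R1881 effect at 22 h differed between the lines by -1.58 ± 0.17 (SE), and that on TGFBR1 by 0.71 ± 0.082 (SE). At 8 h the line difference was 0.68 ± 0.075 (SE) for TGFBR1 and -0.040 ± 0.13 (SE, not called) for TGFBR2.

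SMAD3 (chr15:67063763-67195173, plus strand), which carries the signal from the receptors to the nucleus, fell more than any other member in VCaP. At 22 h DMSO libraries held 34.1 to 36.95 CPM (median 35.5, n = 8) and R1881 libraries 5.64 to 7.90 CPM (median 7.06, n = 9). In the 500 nM group the libraries held 17.8, 18.2, 18.6 and 18.9 CPM. At 2 µM the values were 25.2, 26.7, 26.7, 27.6 and 29.8 CPM. The 4 groups formed separate steps, with R1881 lowest, then 500 nM, then 2 µM, then DMSO. At 8 h DMSO libraries held 29.4 to 34.4 CPM (median 31.6, n = 10) and R1881 libraries 11.3 to 15.7 CPM (median 13.4, n = 10), with 19.9, 20.1, 21.6 and 22.05 CPM at 500 nM and 25.9, 27.4, 29.2, 29.3 and 30.2 CPM at 2 µM. The steps were in the same order and narrower, and 2 µM touched the DMSO range.

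The log2 fold change of SMAD3 with R1881 was -1.22 ± 0.044 (SE) at 8 h and -2.35 ± 0.051 (SE) at 22 h, the latter 5.09-fold lower. The fall was deeper at 22 h, with a difference between the times of -1.12 ± 0.067 (SE). Against R1881, 500 nM darolutamide gave 0.62 ± 0.058 (SE) at 8 h and 1.39 ± 0.061 (SE) at 22 h, and 2 µM gave 1.07 ± 0.052 (SE) and 1.96 ± 0.056 (SE). The doses differed by 0.44 ± 0.065 (SE) at 8 h and 0.57 ± 0.065 (SE) at 22 h. On the scale from R1881 to DMSO, the 22 h libraries lay at 59.2 ± 1.63% with 500 nM (SD, n = 4) and 83.2 ± 3.74% with 2 µM (SD, n = 5). The remaining distance of 2 µM darolutamide from DMSO was -0.39 ± 0.054 (SE) at 22 h and -0.16 ± 0.052 (SE) at 8 h, the latter lost without replicate 3 of the 2 µM group, at -0.13.

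In LAPC4, SMAD3 held 19.4 to 23.2 CPM (median 20.5, n = 7) in DMSO and 14.8 to 19.2 CPM (median 17.3, n = 10) with R1881 at 22 h, and the groups were adjacent without overlap. At 500 nM the libraries held 19.9, 20.6, 20.8, 21.3 and 21.3 CPM. Those with 2 µM held 19.2, 19.7, 19.7, 19.9 and 21.1 CPM, inside or beside the DMSO range. R1881 gave -0.28 ± 0.048 (SE) and 2 µM darolutamide against R1881 0.22 ± 0.054 (SE), both in the direction seen in VCaP. With the control replicates 1 to 5 alone the 2 µM value was 0.12 and was not called. The R1881 effect was more negative in VCaP, with a difference between the lines of -1.16 ± 0.065 (SE) at 8 h and -2.13 ± 0.073 (SE) at 22 h.

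The inhibitory SMADs fell with R1881 in VCaP. SMAD6 (chr15:66702236-66782849, plus strand), which acts mainly on the BMP branch of the family, held 8.24 to 11.6 CPM (median 9.28, n = 10) in DMSO and 3.60 to 5.03 CPM (median 4.32, n = 10) with R1881 at 8 h. The values with 500 nM were 5.14, 6.66, 7.09 and 7.88 CPM. With 2 µM they held 8.12, 8.71, 8.71, 8.80 and 8.85 CPM. R1881 was apart from all other groups, and 2 µM lay inside the DMSO range or just below it. At 22 h the ranges were 5.48 to 9.24 CPM (median 7.29, n = 8) in DMSO and 3.66 to 5.40 CPM (median 4.72, n = 9) with R1881, with 5.79, 5.83, 6.11 and 6.24 CPM at 500 nM and 5.01, 5.62, 6.33, 7.23 and 7.37 CPM at 2 µM. At this time R1881 and DMSO were adjacent without overlap, and 2 µM overlapped both. The R1881 fold change was -1.16 ± 0.081 (SE) at 8 h and -0.65 ± 0.089 (SE) at 22 h, and the effect was smaller at 22 h by 0.51 ± 0.12 (SE), a call lost with the control replicates 1 to 5 alone, at 0.35. The doses differed at 8 h by 0.36 ± 0.12 (SE), which was lost without replicate 1 of the 500 nM group, at 0.26. Against DMSO, 2 µM darolutamide plus R1881 gave -0.14 ± 0.093 (SE, not called) at 8 h and -0.20 ± 0.10 (SE, not called) at 22 h.

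SMAD7 (chr18:48919853-48950965, minus strand), which binds the activated TGF-β receptor and brings ubiquitin ligases to it, held 17.8 to 20.1 CPM (median 18.8, n = 8) in DMSO and 8.63 to 12.2 CPM (median 9.91, n = 9) with R1881 at 22 h in VCaP. The 500 nM libraries held 11.2, 11.4, 12.2 and 12.6 CPM. The 2 µM libraries held 10.5, 11.8, 12.1, 12.3 and 13.1 CPM. Every library with R1881, with or without darolutamide, was below every DMSO library. At 8 h SMAD7 held 17.01 to 21.02 CPM (median 19.1, n = 10) in DMSO and 14.1 to 17.1 CPM (median 15.6, n = 10) with R1881, which overlapped at the edge, with 14.2, 15.5, 15.7 and 15.9 CPM at 500 nM and 15.4, 15.6, 17.4, 17.4 and 17.97 CPM at 2 µM. The R1881 fold change was -0.30 ± 0.047 (SE) at 8 h and -0.90 ± 0.053 (SE) at 22 h, and the fall was deeper at 22 h, with a difference of -0.60 ± 0.071 (SE). On the scale from R1881 to DMSO the 22 h libraries lay at 24.6 ± 8.86% with 500 nM (SD, n = 4) and 25.97 ± 12.6% with 2 µM (SD, n = 5). The distance of 2 µM darolutamide from DMSO at 22 h was -0.67 ± 0.062 (SE), and that between the doses 0.015 ± 0.073 (SE, not called).

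In LAPC4 neither inhibitory SMAD was called for R1881. SMAD6, with 14 to 66 reads per library, gave -0.12 ± 0.14 (SE, not called) at 8 h and -0.078 ± 0.15 (SE, not called) at 22 h, and SMAD7 gave 0.12 ± 0.061 (SE, not called) and 0.084 ± 0.067 (SE, not called). The R1881 effect was more negative in VCaP for SMAD6, with differences of -1.12 ± 0.15 (SE) at 8 h and -0.63 ± 0.17 (SE) at 22 h, and for SMAD7, with -0.51 ± 0.075 (SE) and -1.04 ± 0.084 (SE). The 22 h call of SMAD6 was lost with the control replicates 6 and above alone, at -0.39. PMEPA1, an inhibitor at another step, rose with R1881 in both lines, so the inhibitors on the list did not move as 1 group.

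The corepressors rose in VCaP. SKIL (chr3:170357342-170396835, plus strand), which holds SMAD-bound genes silent, held 21.7 to 31.8 CPM (median 24.5, n = 8) in DMSO and 44.1 to 61.8 CPM (median 45.8, n = 9) with R1881 at 22 h. With 500 nM darolutamide the values were 23.98, 26.8, 27.3 and 28.1 CPM. At 2 µM the values were 18.9, 20.4, 20.8, 21.6 and 24.6 CPM. R1881 stood apart from all other groups, and most 2 µM libraries were below the DMSO range or in its lower part. The R1881 fold change was 0.97 ± 0.065 (SE) at 8 h and 0.94 ± 0.072 (SE) at 22 h, and the times differed by -0.025 ± 0.096 (SE, not called). The libraries at 22 h lay at 91.8 ± 10.6% with 500 nM (SD, n = 4) and 126 ± 14.6% with 2 µM (SD, n = 5) of the way to DMSO. At 8 h SKIL held 23.6 to 31.02 CPM (median 25.9, n = 10) in DMSO and 40.8 to 59.02 CPM (median 51.3, n = 10) with R1881, with 38.7, 39.6, 43.9 and 44.9 CPM at 500 nM and 27.2, 30.2, 31.5, 35.3 and 36.5 CPM at 2 µM, so the doses lay between the controls. With R1881 plus 2 µM darolutamide SKIL was above DMSO at 8 h, by 0.30 ± 0.080 (SE), and below it at 22 h, at -0.25 ± 0.086 (SE). The 22 h value was not called with the control replicates 6 and above alone, at -0.18. The doses differed by -0.38 ± 0.097 (SE) at 8 h and -0.32 ± 0.10 (SE) at 22 h, the latter lost without replicate 3 of the 500 nM group, at -0.29.

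SKI (chr1:2227388-2310213, plus strand), its close relative, changed little and in the same direction in both lines. In VCaP at 22 h it held 46.96 to 59.6 CPM (median 52.3, n = 8) in DMSO and 55.97 to 70.6 CPM (median 67.2, n = 9) with R1881, with 56.1, 56.2, 58.01 and 60.1 CPM at 500 nM and 55.4, 56.8, 58.5, 63.2 and 73.9 CPM at 2 µM. In LAPC4 it held 76.8 to 87.2 CPM (median 84.1, n = 7) and 84.5 to 108 CPM (median 96.8, n = 10), with 82.5, 83.02, 85.5, 90.00 and 110.3 CPM at 500 nM and 74.8, 75.6, 83.5, 85.1 and 98.3 CPM at 2 µM. The groups overlapped in both lines. R1881 gave 0.32 ± 0.058 (SE) in VCaP and 0.22 ± 0.059 (SE) in LAPC4 at 22 h, and the lines differed by 0.046 ± 0.075 (SE, not called). The LAPC4 calls of SKI, with R1881 and with 2 µM darolutamide, at -0.22 ± 0.066 (SE), were lost with control replicates 1 to 5 or with those numbered 6 and above. Leaving out replicate 2 or 4 of the 2 µM group also ended the second, at -0.18 and -0.18. For SKIL, R1881 in LAPC4 gave -0.17 ± 0.065 (SE, not called), and the R1881 effect was higher in VCaP by 1.06 ± 0.10 (SE).

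**Figure D4:**
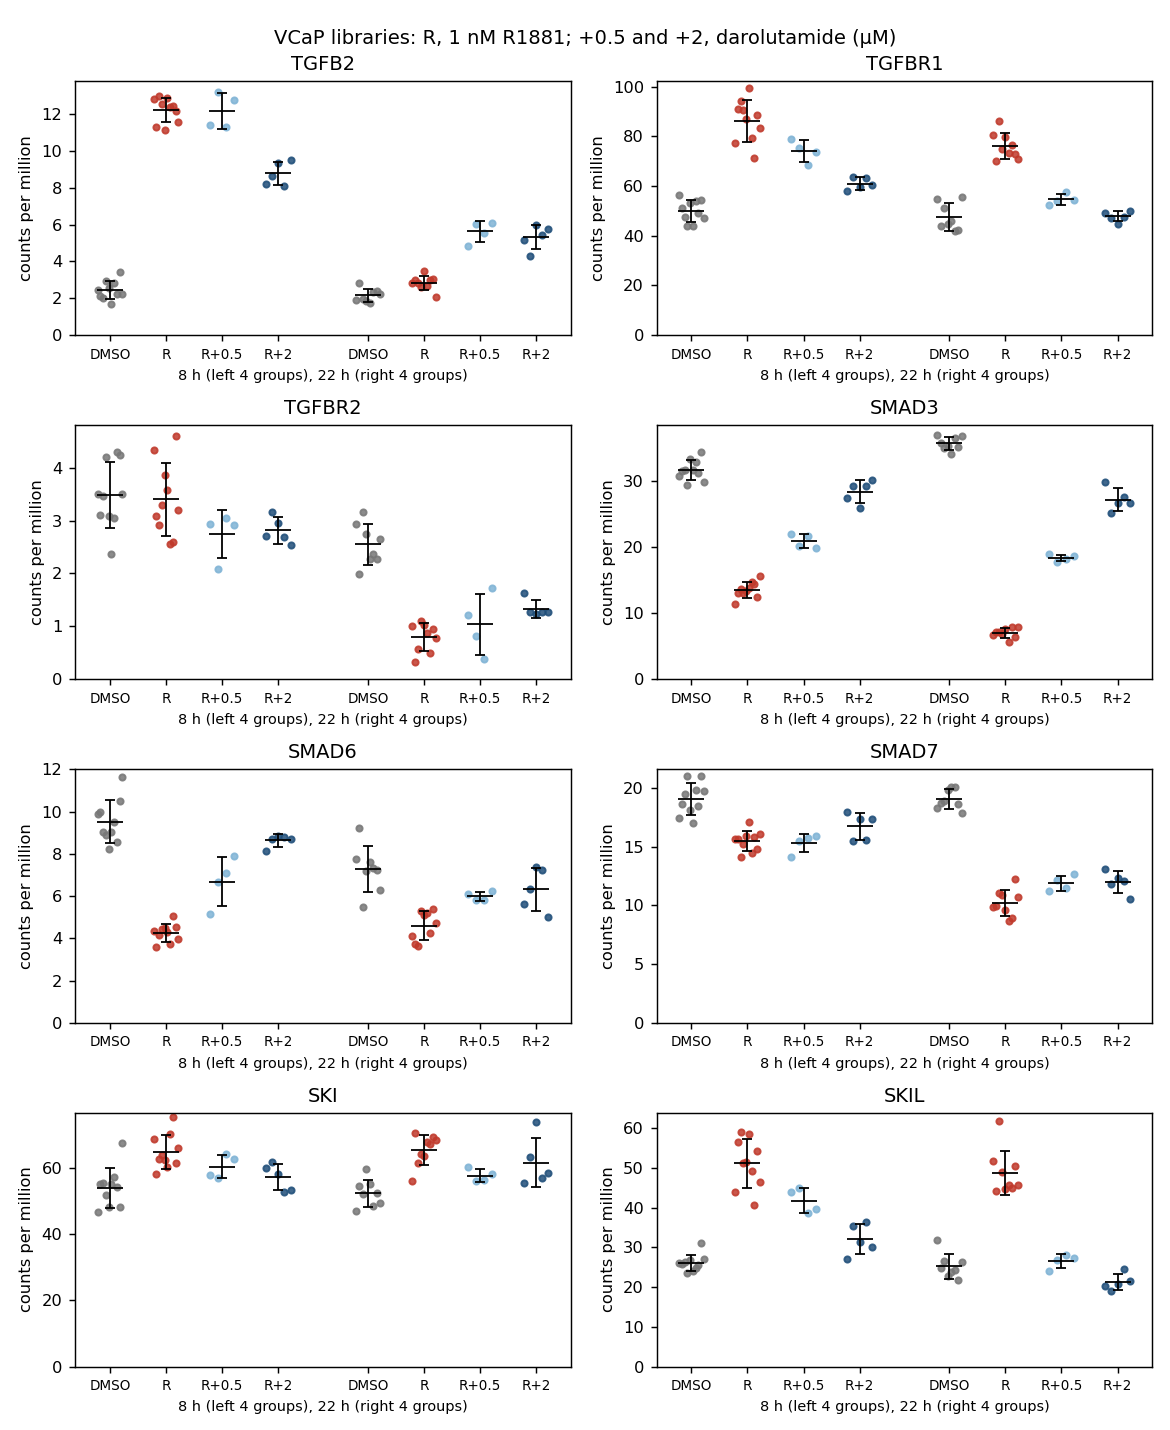
Level of 8 members in every VCaP library in CPM, with 1 point per library, a black line at the group mean and bars of 1 SD, for DMSO, 1 nM R1881 (R) and R1881 with 0.5 or 2 µM darolutamide, at 8 h (left 4 groups) and 22 h (right 4 groups). SMAD3 falls with R1881 and climbs back in steps with dose, SKIL rises and returns, and TGFB2 is highest at 8 h with R1881 alone or with 0.5 µM darolutamide.

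The darolutamide values of these genes were also known when they were listed, so the counts below are a description and are not read against the shares of all genes. With 2 µM, 7 of 9 were called at 8 h, beside 52.1% of all genes, and 8 of 9 at 22 h, beside 66.9%. With 500 nM, 5 of 9 were called at 8 h, beside 30.6%, and 8 of 9 at 22 h, beside 53.0%. In LAPC4, 2 µM gave 1 of 10 at 8 h, beside 1.54%, and 4 of 10 at 22 h, beside 10.5%, and 500 nM gave 1 of 10, beside 0.626%, and 2 of 10, beside 5.89%. PMEPA1 was the member called in all 4 LAPC4 comparisons. In VCaP at 8 h the SKI call with 2 µM, at -0.18 ± 0.065 (SE), was lost without replicate 4 or replicate 5 of that group, at -0.14 and -0.16, and when only the compared groups were fitted, at -0.14. The 22 h count at 2 µM in LAPC4 was 1 of 10 with the control replicates 1 to 5, and 2 of 10 without replicate 2 or without replicate 4 of the 2 µM group.

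On the scale from R1881 to DMSO, members with an R1881 change of at least 0.3 took different positions in VCaP at 22 h with 2 µM darolutamide. SKIL lay at 126 ± 14.6%, TGFBR1 at 97.7 ± 8.98% and SMAD3 at 83.2 ± 3.74% (SD, n = 5 each). SMAD6 at 68.9 ± 36.1%, TGFBR2 at 45.7 ± 9.54%, SKI at 28.2 ± 51.9% and SMAD7 at 25.97 ± 12.6% were lower or more widely spread. PMEPA1 was at 19.2 ± 0.591%, and TGFB2 at -232 ± 46.96%, with its levels above those in R1881 and a small R1881 change as the unit of the scale. In LAPC4, PMEPA1, TGFB2 and the scarce TGFB1 reached that change at 22 h, and TGFB2 lay at 67.98 ± 34.00%.

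**Figure D5:**
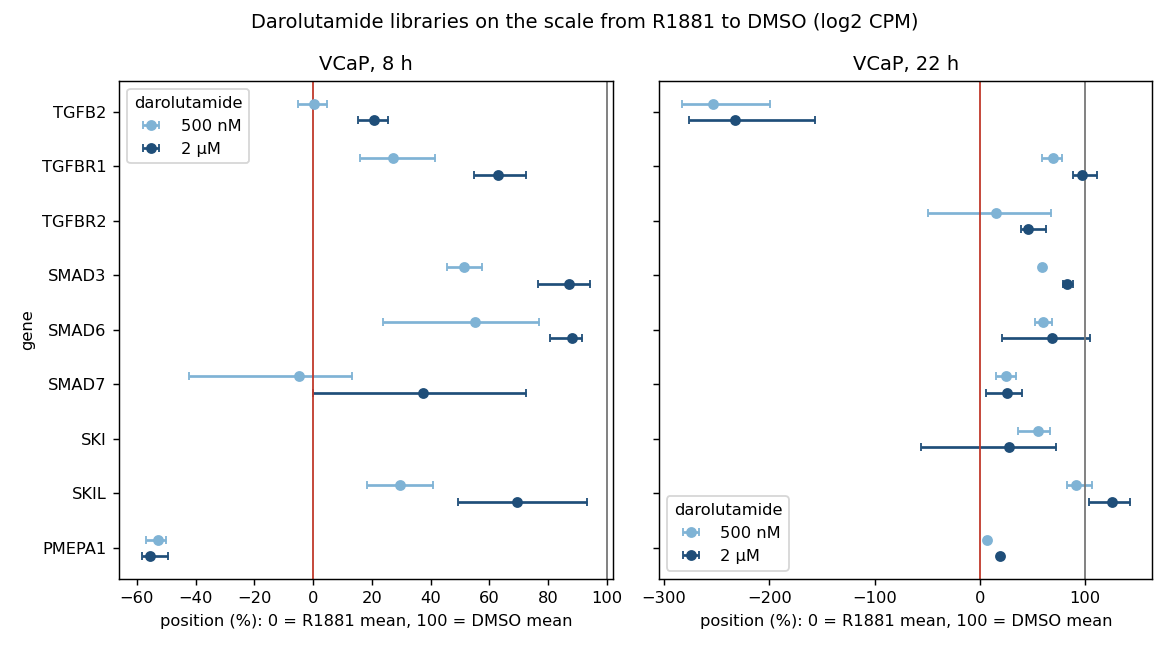
Position of the VCaP libraries with 500 nM (n = 4) and 2 µM (n = 5) darolutamide between the R1881 mean (0%) and the DMSO mean (100%) on log2 CPM, at 8 h (left) and 22 h (right), with points at the mean and bars from the lowest to the highest library. PMEPA1 lies at -52.7% and -55.4% at 8 h and at 6.77% and 19.2% at 22 h, and SMAD3 moves from 59.2% to 83.2% with dose at 22 h.

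Differences between doses, times and lines are built from those known values and are a description too. Between the doses, 5 of 9 members were called in VCaP at 8 h, beside 17.6% of all genes, and 3 of 9 at 22 h, beside 20.2%. In LAPC4, edgeR called 0 of 10 at 8 h, beside 0.0275% of all genes, with 1 at an unadjusted p under 0.05 and 0 in DESeq2. At 22 h edgeR called 0 of 10 as well, beside 0.258%, with 2 at an unadjusted p under 0.05 and 1, PMEPA1, in DESeq2. With R1881 plus 2 µM darolutamide against DMSO, 6 of 9 were called in VCaP at 8 h, beside 27.5%, and 7 of 9 at 22 h, beside 59.0%. The same comparison in LAPC4 gave 0 of 10 in edgeR at each time, beside 0.0110% and 0.0165% of all genes, with 0 at an unadjusted p under 0.05 and 0 in DESeq2. The R1881 effect differed between the times in 6 of 9 members in VCaP, beside 60.4%, and in 2 of 10 in LAPC4, beside 3.21%. It differed between the lines in 8 of 9 at 8 h, beside 58.5% of 16578 genes, and in 8 of 9 at 22 h, beside 68.5%.

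The rest of the pathway was followed with 77 further genes, and 64 of these passed the count filter in VCaP and 56 in LAPC4. They too were listed with earlier results of these data known, so their counts are a description. With R1881 at 22 h, 55 of the 64 were called in VCaP (24 higher, 31 lower, 85.9% of those tested, beside 77.4% of all genes) and 19 of the 56 in LAPC4 (8 higher, 11 lower, 33.9% beside 13.3%). The median log2 fold change was -0.18 in VCaP and -0.021 in LAPC4, against -0.034 and 0.0067 over all tested genes. At 8 h, 55 of 64 were called in VCaP (25 higher, 30 lower), beside 66.9% of all genes, and 10 of 56 in LAPC4 (5 higher, 5 lower), beside 2.64%.

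By role, the genes that make, store or release latent TGF-β were called in 1 direction in VCaP at 22 h, where 0 of 9 tested rose and 8 fell, with a median of -1.06, beside 40.0% of all genes lower. At 8 h they went both ways, and 2 of 9 tested rose and 3 fell, with a median of -0.18. TGFB1 and TGFB2, counted with the members, are not in this role, and TGFB2 was called higher with R1881 at both times (given above). Of all genes in VCaP at 8 h, 32.8% were called higher and 34.1% lower. The other ligands and their antagonists were called in 1 direction at 8 h, where 0 of 8 tested rose and 7 fell, with a median of -1.48. At 22 h 2 of these 8 rose and 5 fell. The counts of the other roles in VCaP are also of 22 h, beside 37.4% of all genes higher and 40.0% lower. Among the further receptors 5 of 10 tested rose and 3 fell, and among the other SMADs and their partners 6 of 11 tested rose and 4 fell. Among the other inhibitors 4 of 11 tested rose and 5 fell, and among genes that TGF-β or BMP signals induce 7 of 15 tested rose and 6 fell. In LAPC4 at 22 h, 6.83% of all genes were called higher and 6.45% lower. The figures by role were 0 of 8 risen and 3 fallen for release of latent TGF-β, and 0 of 4 and 2 for other ligands. They were 2 of 9 and 1 for receptors, and 2 of 11 and 1 for SMADs and partners. For inhibitors they were 3 of 11 and 2, and for induced genes 1 of 13 and 2. The induced genes of VCaP thus went both ways. With 2 µM darolutamide against R1881 at 22 h, 51 of 64 were called in VCaP, beside 66.9% of all genes, and 18 of 56 in LAPC4, beside 10.5%. Against DMSO, 44 of 64 were called in VCaP, beside 59.0%. In LAPC4 edgeR called 0 of 56, beside 0.0165%, with 5 at an unadjusted p under 0.05 and 0 in DESeq2.

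Among called pathway genes with a mean log2 CPM above 0, those with the largest R1881 change at 22 h in each line were named. Their p-values for that change are a description. The largest such change in VCaP was in INHBA, which encodes the subunit of activin A, another ligand that signals through SMAD2 and SMAD3. INHBA held 8.83 to 11.6 CPM (median 9.60, n = 8) in DMSO and 0.0522 to 0.315 CPM (median 0.123, n = 9) with R1881 at 22 h, a log2 fold change of -6.04 ± 0.14 (SE, edgeR adjusted p = 2.19e-41). Those R1881 libraries held 1 to 5 INHBA reads each, so the size of the fall rests on values near the floor. With 2 µM darolutamide INHBA averaged 1.33 ± 0.172 CPM (SD, n = 5), and it remained below DMSO, at -2.90 ± 0.12 (SE, edgeR adjusted p = 6.34e-29). In LAPC4, INHBA fell as well, from 5.32 ± 0.454 CPM (SD, n = 7) to 3.04 ± 0.492 CPM (SD, n = 10), with a log2 fold change of -0.81 ± 0.084 (SE, edgeR adjusted p = 2.52e-11). LTBP1, which tethers latent TGF-β to the extracellular matrix, held 54.3 to 59.2 CPM (median 57.9, n = 8) in DMSO and 4.18 to 6.21 CPM (median 4.82, n = 9) with R1881 in VCaP, a change of -3.54 ± 0.061 (SE, edgeR adjusted p = 1.13e-47). Its steps with dose resembled those of SMAD3 in order, with 13.8 ± 0.883 CPM at 500 nM (SD, n = 4) and 27.99 ± 1.92 CPM at 2 µM (SD, n = 5).

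FN1, which encodes fibronectin, a matrix protein that TGF-β induces in many cells, changed in opposite directions in the 2 lines. In VCaP it was scarce and fell, from 5.78 ± 0.491 CPM in DMSO (SD, n = 8) to 0.413 ± 0.186 CPM with R1881 (SD, n = 9), with a log2 fold change of -3.76 ± 0.14 (SE, edgeR adjusted p = 4.77e-32). Those R1881 libraries held 4 to 16 FN1 reads each. In LAPC4 it was abundant and rose, from 363 ± 19.4 CPM (SD, n = 7) to 527 ± 31.2 CPM (SD, n = 10), by 0.54 ± 0.038 (SE, edgeR adjusted p = 2.80e-17). LUM, the only 1 of the 6 fibroblast markers with more than 45 reads in any VCaP library, fell in the same libraries (given above). Its part in the fall of FN1 was not tested. The effects differed by -4.36 ± 0.13 (SE, edgeR adjusted p = 2.33e-53). BMPR1B, a BMP receptor, rose in both lines, by 2.88 ± 0.047 (SE, edgeR adjusted p = 8.33e-49) in VCaP and 0.73 ± 0.073 (SE, edgeR adjusted p = 9.09e-12) in LAPC4. With 2 µM darolutamide BMPR1B averaged 115 ± 3.39 CPM in VCaP (SD, n = 5), between 41.6 in DMSO and 308 CPM in R1881. CDKN1A, which encodes the cell-cycle inhibitor p21, rose in VCaP by 2.03 ± 0.058 (SE, edgeR adjusted p = 5.83e-37) and was not called in LAPC4, at 0.0092 ± 0.11 (SE). In LAPC4 the list also named SMAD9, a SMAD of the BMP branch, at 0.59 ± 0.056 (SE, edgeR adjusted p = 1.72e-12), and ITGB6, a subunit of an integrin that activates latent TGF-β, at -0.64 ± 0.099 (SE, edgeR adjusted p = 1.23e-06). SMAD9 went the other way in VCaP, at -0.43 ± 0.047 (SE, edgeR adjusted p = 3.55e-12), and the effects differed by -1.08 ± 0.079 (SE, edgeR adjusted p = 8.24e-24).

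LDLRAD4 is the paralog of PMEPA1 and also binds SMAD2 and SMAD3. In VCaP at 8 h it held 5.47 to 7.42 CPM (median 5.86, n = 10) in DMSO and 31.6 to 37.7 CPM (median 34.7, n = 10) with R1881, without overlap. It averaged 13.2 ± 0.764 CPM with 500 nM (SD, n = 4) and 7.87 ± 0.377 CPM with 2 µM darolutamide (SD, n = 5). At 22 h the means were 3.65 ± 0.555 CPM in DMSO (SD, n = 8), 3.99 ± 0.607 CPM with R1881 (SD, n = 9), 1.55 ± 0.460 CPM with 500 nM (SD, n = 4) and 1.12 ± 0.282 CPM with 2 µM (SD, n = 5). The rise at 8 h, 2.50 ± 0.072 (SE, edgeR adjusted p = 1.39e-36), was thus not present at 22 h, at 0.13 ± 0.095 (SE, edgeR adjusted p = 0.213), whereas that of PMEPA1 grew. Darolutamide also set the 2 paralogs apart at 8 h, with LDLRAD4 at -2.14 ± 0.091 (SE, edgeR adjusted p = 6.19e-28) against R1881 with 2 µM while PMEPA1 was higher. In LAPC4, LDLRAD4 was at 0.552 CPM or below in every library.

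Of 1630 genes that varied between the 8 groups in both lines, the 5 with the pattern most like PMEPA1 are given as a description. They were taken by the smaller of the 2 lines' correlations of group means of log2 CPM, each over 8 groups. They were STEAP1, a metalloreductase of prostate cells (r = 0.960 in VCaP and 0.991 in LAPC4), ENDOD1 (r = 0.951 in VCaP and 0.959 in LAPC4), STEAP1B (r = 0.960 in VCaP and 0.951 in LAPC4), SLC45A3, the gene of the prostate protein prostein (r = 0.938 in VCaP and 0.974 in LAPC4), and RAB3B, a vesicle GTPase (r = 0.975 in VCaP and 0.926 in LAPC4). Reads of STEAP1 and STEAP1B, which are close in sequence, may not be fully separated. In VCaP at 8 h, the log2 difference of 500 nM darolutamide from R1881 was 0.16 for STEAP1, 0.40 for ENDOD1, 0.18 for STEAP1B, 0.30 for SLC45A3 and 0.24 for RAB3B. All 5 were called there, as a description, since they were picked for following PMEPA1 over these same groups. With 2 µM the values were 0.096, 0.28, 0.099, 0.12 and 0.11 in the same order, all smaller than the 0.38 of PMEPA1, and those of STEAP1B and SLC45A3 were not called. In LAPC4 at 8 h the difference with 500 nM was -0.18, -0.46, -0.17, -0.44 and -0.40, of which those of STEAP1 and STEAP1B were not called. With 2 µM at 22 h in VCaP, ENDOD1 was at 0.32 and SLC45A3 at -1.42 against R1881.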

How the data were processed

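The 112 RNA-seq libraries were analysed from the deposited counts, whole numbers of reads per gene. The authors made them with the TruSeq stranded kit (single-end, 50 bases), bcl2fastq 2.17, STAR on GRCh38 and featureCounts, the versions of the last 2 and the strand setting not being given in the sources used here. The filter kept a gene when 4 or more libraries of the line held 10 or more of its reads, and the 8 groups of a line were fitted together with edgeR 4.0.16 (R 4.3.3, TMM scaling, quasi-likelihood test, Benjamini-Hochberg adjustment over all tested genes, called at an adjusted p under 0.05). Differences between lines came from 1 fit of all 16 groups. DESeq2 1.42.0, no filter, the compared groups alone, the slope of counts on GC content as a covariate, control replicates 1 to 5 or 6 and above alone, a replicate block and leaving out each darolutamide library were the alternatives. The fit was tested on simulated data. Libraries held 12188455 to 25201678 reads, and no pair agreed within sampling noise. Exon lengths came from GENCODE 44.

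The members and gene lists were chosen with earlier results of these data known. Named genes were the 10 members, the 5 further pathway genes per line with the largest R1881 change at 22 h among those called with a mean log2 CPM above 0, LDLRAD4, the 5 genes most like PMEPA1 with an SD of group means of at least 0.2 in both lines, and the checks ERG, KLK3 and FKBP5.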

Additional observations from a re-analysis of the deposited data

Results flagged for a closer look

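Of 160 combinations of a member and a group of 4 to 10 libraries, 10 had a highest or lowest library set apart from the others by Dixon's test, and chance sets apart about 1 in 20. In log2 CPM these were TGFB1 in replicate 2 of the LAPC4 500 nM group at 22 h (lowest, -2.30), TGFBR2 in replicate 1 of the VCaP 2 µM group at 22 h (highest, 0.78), TGFBR2 in replicate 2 of the VCaP 500 nM group at 8 h (lowest, 1.12) and SMAD6 in replicate 4 of the LAPC4 DMSO group at 8 h (highest, 1.46). SMAD6 was also lowest in replicate 1 of the LAPC4 2 µM group at 22 h (-0.035) and in replicate 1 of the VCaP 2 µM group at 8 h (3.04). SKIL was lowest in replicate 1 of the LAPC4 500 nM group at 8 h (4.38) and highest in replicate 9 of the VCaP DMSO group at 8 h (4.96) and in replicate 3 of the VCaP R1881 group at 22 h (5.95). PMEPA1 was lowest in replicate 4 of the LAPC4 2 µM group at 22 h (5.14).

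The effect of R1881 was called as different between 22 and 8 h in 6 members in VCaP (edgeR interaction contrast), which, like the values between lines, is a description, since the genes were listed with these responses known. The log2 differences were -1.94 for TGFB2, -1.64 for TGFBR2, -1.12 for SMAD3, -0.60 for SMAD7, 0.51 for SMAD6 and 0.62 for PMEPA1. In LAPC4 they were -0.46 for TGFB2 and 0.68 for PMEPA1.

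Between VCaP and LAPC4 the effect of R1881 was called as different in 8 members at 8 h, with log2 differences of 2.31 for TGFB2, 0.84 for SKIL, 0.68 for TGFBR1, 0.23 for PMEPA1, 0.16 for SKI, -0.51 for SMAD7, -1.12 for SMAD6 and -1.16 for SMAD3. That of SKI was not called with control replicates 1 to 5 or with those numbered 6 and above. At 22 h the differences were 1.06 for SKIL, 0.85 for TGFB2, 0.71 for TGFBR1, 0.20 for PMEPA1, -0.63 for SMAD6, -1.04 for SMAD7, -1.58 for TGFBR2 and -2.13 for SMAD3. VCaP and LAPC4 were each 1 line, so ERG status, preparation and any other property of a line cannot be told apart.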

How the results depend on the processing

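Of 1521 recomputed log2 fold changes of members, 1442 kept their direction and their side of the threshold, 60 lost the call, 10 gained one and 9, none of them called, turned sign. Every count given is of genes called, and the cause of each change was not tested unless fewer libraries or genes entered by construction.

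The values that turned sign were TGFBR2 with R1881 at 8 h in VCaP (0.015), PMEPA1 with R1881 plus 2 µM darolutamide against DMSO at 8 h in LAPC4 (0.00063) and, with R1881 in LAPC4, TGFB2 at 8 h (0.040) and SMAD6 at 22 h (0.055), all with control replicates 1 to 5 alone. With control replicates 6 and above alone, TGFB1 (-0.11) and SKI (-0.037) turned with R1881 at 8 h in LAPC4. With the replicate block, SMAD6 with R1881 at 22 h in LAPC4 turned (0.048), and with the block and GC covariate SMAD6 (0.034) and, at 8 h, TGFBR1 (-0.0027).

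Deviations from group means of same-numbered libraries correlated by -0.00511 on average in VCaP (149 pairs, 33 of them over 0.1) and by 0.0549 in LAPC4 (161 pairs, 57 of them over 0.1). Libraries of different numbers gave 0.000668 and -0.00717. Replicate numbers were thus not treated as pairs in the main fit, but such a mean cannot exclude pairing between some of the groups. With the replicate block, members called in LAPC4 went from 4 to 2 for 2 µM at 22 h, from 2 to 1 for 500 nM at 22 h and from 1 to 0 for 500 nM at 8 h, and in VCaP from 8 to 5 for 500 nM at 22 h and from 5 to 3 at 8 h. The calls lost with the block included PMEPA1 with 500 nM against R1881 at 22 h in VCaP (-0.048) and at 8 h in LAPC4 (-0.27), SKI in VCaP with 2 µM at 8 h (-0.096) and 500 nM at 22 h (-0.089), and, in LAPC4 with 2 µM at 22 h, TGFB2 (0.14) and SMAD3 (0.099). Pathway genes called for 500 nM at 8 h went from 3 to 0 in LAPC4 and from 34 to 14 in VCaP.

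With the block and the GC covariate together, an alternative chosen after seeing the data, members in LAPC4 went from 4 to 2 for 2 µM at 22 h, from 1 to 2 for 2 µM at 8 h, from 0 to 1 between doses at 8 h and from 1 to 2 for R1881 at 8 h. Pathway genes in LAPC4 went from 0 to 6 at 22 h and 0 to 4 at 8 h for 2 µM plus R1881 against DMSO, from 6 to 13 for 2 µM at 8 h, from 3 to 9 for 500 nM at 8 h, and between doses from 1 to 3 at 22 h and 0 to 4 at 8 h. Between doses at 22 h in VCaP they went from 24 to 37.

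With the GC covariate alone, members in LAPC4 went from 1 to 2 for 2 µM at 8 h, 0 to 1 between doses at 22 h, 2 to 4 for 500 nM at 22 h and 1 to 2 for R1881 at 8 h. Pathway genes went between doses from 1 to 3 at 22 h and 0 to 3 at 8 h in LAPC4 and from 21 to 33 at 8 h in VCaP, and in LAPC4 from 3 to 6 for 500 nM at 8 h, 12 to 19 for DMSO over time and 4 to 11 for the R1881 effect over time.

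With control replicates 1 to 5 alone, members went in LAPC4 from 4 to 1 for 2 µM at 22 h, 2 to 1 for the R1881 effect over time and 5 to 3 for R1881 at 22 h, and in VCaP from 4 to 2 for DMSO over time, while pathway genes for 2 µM plus R1881 against DMSO at 22 h in LAPC4 went from 0 to 1. With those numbered 6 and above, members in LAPC4 went from 1 to 2 for 2 µM at 8 h, 4 to 1 for DMSO over time, 2 to 1 for the R1881 effect over time, 5 to 3 for R1881 at 22 h and 1 to 2 at 8 h, and in VCaP from 4 to 2 for DMSO over time. Pathway genes in LAPC4 then went from 12 to 4 for DMSO over time, 4 to 1 for the R1881 effect over time and 19 to 11 for R1881 at 22 h.

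DESeq2 called 1 member, against 0, between doses at 22 h in LAPC4. Without the filter or with the compared groups alone, members for the R1881 effect over time in LAPC4 went from 2 to 1, and without the filter pathway genes went from 3 to 1 for 500 nM at 8 h and from 4 to 2 for that effect. Leaving out each darolutamide library gave 2 to 4 members for 2 µM at 22 h in LAPC4, 0 to 1 between doses at 22 h (1 without replicate 4 of the 500 nM or replicate 1 of the 2 µM group) and 1 to 3 pathway genes for 500 nM at 8 h in LAPC4 (1 without replicate 2 or 3 of the 500 nM group).

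Depth limited TGFB1 most, at no more than 15 reads in any library. SMAD6 in LAPC4 (14 to 66 reads) and TGFBR2 in VCaP (7 to 95 reads) were also measured from few reads. So were INHBA (1 to 5 reads) and FN1 (4 to 16 reads) in the VCaP libraries with R1881 alone for 22 h.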
